A study of Mus musculus with 6 samples.

Results

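Transcripts of 10 apolipoprotein genes (Apoa1, Apoa2, Apoa4, Apoa5, Apob, Apoc1, Apoc3, Apoe, Apoh and Apom) were followed in sorted cells of the embryonic mouse liver. The genes were found by their symbols among 52550 genes of the deposited table, and all 10 were listed. Cells positive for green fluorescent protein were sorted from embryos of the CD-1 strain that carry the Sox9-GFP reporter, which marks cells expressing the biliary transcription factor SOX9. The 2 stages, E16.5 and E18.5 (embryonic days 16 and 18 in the labels), have 3 libraries each, called replicates A, B and C, and both stages carried the same reporter with no other treatment. Each library came from a pool of livers that had been depleted of haematopoietic cells before sorting, so a value is an average over embryos. The reporter selects SOX9-expressing cells whatever their other identity, and the labels name the cells cholangiocytes from liver.

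Apolipoproteins are the proteins that coat lipoproteins, the particles that carry cholesterol and triglycerides in plasma. APOB is the structural protein of very-low-density particles, whereas APOA1 and APOA2 build high-density particles, and APOE is the ligand by which remnants are taken up through receptors of the LDL receptor family. In the fetal liver most of them are made mainly by hepatoblasts, the bipotent precursors of hepatocytes and of the cholangiocytes that line the bile ducts.

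The deposited values are TPM, a transcript level scaled by gene length and by the library total. Reads recovered from them ranged from 13093937 to 26206374 per library, and every E18.5 library was shallower than every E16.5 library. Markers of hepatoblasts and of cholangiocytes were present, and so were markers of other cells. The summed level of 14 hepatoblast markers was 184849 to 234116 TPM at E16.5, against 47879 to 111484 TPM at E18.5. Alb alone, which did not pass the test, held 117854 to 148077 TPM and 30024 to 70151.5 TPM of it. Of the 14, 5 passed the test, all lower, against 5.22% of all genes tested. The sum of 12 cholangiocyte markers was 1059 to 3120 TPM and 8976 to 15178 TPM, of which Spp1 held 469 to 1767 TPM and 6629 to 12121 TPM. Of the 12, 11 were called higher, against 26.0% of all genes tested. Hepatoblast markers were lowest in E18.5 replicate B, and their part in the results below was not tested. Among other cells, the 11 megakaryocyte markers summed to 3509 to 10109 TPM at E16.5 and 109 to 814 TPM at E18.5. The 10 pancreatic acinar markers summed to 86.3 to 2627 TPM, highest in E16.5 replicate A, and then to 16.9 to 60.8 TPM. Mesenchyme markers summed to 172 to 338 TPM and 321 to 814 TPM, and mesothelial markers to 2.27 to 9.41 TPM and 36.1 to 84.8 TPM. The part of these cells was not tested either. Fewer cells of a type and less RNA per cell cannot be told apart in such bulk samples. Whether the pools of 1 stage were sorted separately is not given, so p-values measure the spread between these libraries, which may be technical.

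Together the 10 transcripts made up 1.49%, 1.49% and 1.91% of the TPM in E16.5 replicates A, B and C, and 0.718%, 0.364% and 0.962% in the E18.5 replicates. The stages did not overlap. The summed level was 16319 ± 2403 TPM (SD, n = 3) at E16.5 and 6812 ± 3009 TPM (SD, n = 3) at E18.5, which is 2.40-fold lower (two-sided exact permutation test, p = 0.1, the smallest value that 3 libraries against 3 can give). The order of the genes also differed. At E16.5 each library had Apoa1 first, then Apoa2, Apob and Apoh. At E18.5 Apoa1 was first in replicates A and C, but in replicate B Apoe led, with Apoh, Apoa2 and Apob also above Apoa1. Accordingly, the share of the sum held by Apoa1 was 37.9% to 39.6% at E16.5 but only 12.4% to 33.3% later, and that of Apoe was 5.22% to 7.31% and then 13.4% to 31.7%.

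**Figure D1:**
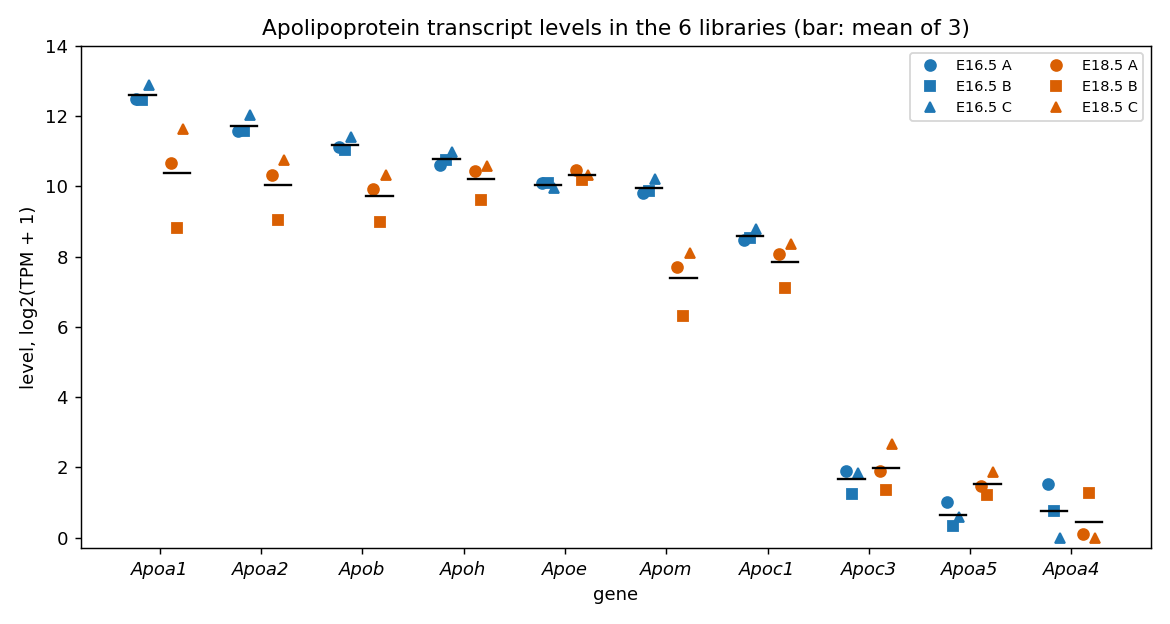
Level of each gene as log2(TPM + 1) in the 6 libraries (blue, E16.5; orange, E18.5; circles, squares and triangles are replicates A, B and C; black bars are means of 3). Apoa1, Apoa2, Apob, Apoh, Apom and Apoc1 are lower in every E18.5 library than in any E16.5 library, Apoe is slightly higher (it reverses under median-of-ratios scaling), and Apoc3, Apoa5 and Apoa4 lie below 6 TPM throughout.

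Levels on the log2(TPM + 1) scale were compared by limma, with Benjamini-Hochberg adjustment, over the 22452 genes whose mean reached 1 TPM. Over all these genes 5.22% were called lower and 26.0% higher at E18.5, and the median log2 fold change was 0.42. Calls across all genes were 83.3% higher in this fit and 38.1% higher under median-of-ratios scaling, where the median was 0.01. Of the 10 members, 9 passed the filter. Among them, 4 were called lower (Apom, Apoa1, Apoa2 and Apob) and 0 higher, and 1 reached an unadjusted p under 0.05 in the higher direction (Apoa5). Of the 16 other fits, limma voom on the recovered reads called no member higher, whereas eBayes without the trend called Apoa5 (adjusted p = 0.0477) and quantile normalization called Apoe (log2 fold change 0.53, adjusted p = 0.0480). The median log2 fold change of the 9 was -0.75. Every E18.5 library was below every E16.5 library for 6 of the 9, against 8.30% of all genes tested, and above it for 2, against 45.0%.

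Among the proteins of high-density lipoproteins, Apoa1 was the most abundant. The gene (chr9:46228580-46230466, plus strand, GRCm38, GENCODE vM21, as for all gene positions) was at 5779, 5660.5 and 7563 TPM in the E16.5 replicates and at 1639.9, 451 and 3208 TPM in the E18.5 replicates. The E18.5 libraries spread over 7.12-fold, with replicate B lowest, yet none reached the E16.5 range. Its log2 fold change was -2.23 (SE 0.65, adjusted p = 0.0397). Without E18.5 replicate B the value was -1.45, and the adjusted p passed 0.05 in 8 of 16 other settings, reaching 0.113. Apoa1 ranked between 4 and 7 among protein-coding genes in the E16.5 libraries and at 21, 122 and 12 in the E18.5 libraries.

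Apoa2, which encodes the second protein of these particles (chr1:171225054-171226379, plus strand), was at 3037, 3033 and 4157 TPM at E16.5 and at 1272, 526 and 1718 TPM at E18.5. It fell by 1.69 on the log2 scale (SE 0.42, adjusted p = 0.0270), a call kept in 10 of 16 settings. The ratio of Apoa1 to Apoa2 within a library was 1.90, 1.87 and 1.82 at E16.5 and 1.29, 0.857 and 1.87 at E18.5. The stages overlapped in this ratio (log2 difference -0.55, exact permutation p = 0.3).

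Apom encodes a lipocalin of high-density particles that carries sphingosine 1-phosphate. It lies at chr17:35128997-35132050 on the minus strand. Its level was 890.0, 934 and 1178 TPM at E16.5 and 209, 79.2 and 273 TPM at E18.5. This was the largest fall among the 9 tested genes, 5.35-fold by the means, with a log2 fold change of -2.58 (SE 0.43, adjusted p = 0.0115). It was also the only member called in all 16 other settings, where the log2 fold change ranged from -3.04 to -2.05. The ratio of Apoa1 to Apom, 6.06 to 6.49 at E16.5 and 5.69 to 11.8 later, overlapped between the stages (log2 difference 0.34, exact permutation p = 0.4).

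Apob (chr12:7977648-8016835, plus strand) was at 2214, 2114 and 2720 TPM at E16.5 and 963, 509.9 and 1273 TPM at E18.5. It fell by 1.45 on the log2 scale (SE 0.33, adjusted p = 0.0214), and 13 of 16 settings kept the call. Within a library Apoa1 was 2.61 to 2.78 times Apob at E16.5 and 0.884 to 2.52 times Apob at E18.5. The difference of the log2 ratios was -0.79 (exact permutation p = 0.1, adjusted p = 0.15 over 9 ratios), and -0.38 without E18.5 replicate B.

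Apoh and Apoc1 were lower in all E18.5 libraries but did not pass the test, although limma voom on the recovered reads called Apoc1 lower (log2 fold change -0.90, adjusted p = 0.0436). Apoh encodes a plasma glycoprotein that binds anionic phospholipids (chr11:108343354-108414396, plus strand). It was at 1575, 1709.8 and 2037 TPM at E16.5 and 1400.3, 779 and 1526 TPM at E18.5, a log2 fold change of -0.57 (SE 0.28, adjusted p = 0.143). Of its annotated exon length, 1.88% is shared with Prkca on the opposite strand. Apoc1, whose product limits the uptake of triglyceride-rich particles (chr7:19689481-19692660, minus strand), was at 352, 373 and 439 TPM, then at 267, 136 and 329 TPM. Its log2 fold change was -0.75 (SE 0.31, adjusted p = 0.101). Replicate B carried the lowest value of both genes at E18.5, and without it the log2 fold changes were -0.27 for Apoh and -0.38 for Apoc1.

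Apoe was the abundant gene that moved the other way. It sits 3448 bp upstream of Apoc1 at chr7:19696109-19699188, on the same strand. Its level was 1093, 1089.6 and 997 TPM at E16.5 and 1422, 1152 and 1287 TPM at E18.5, so every E18.5 library lay above the E16.5 range. The log2 fold change of 0.28 (SE 0.14, adjusted p = 0.168) was below the median of all genes and became -0.19 under median-of-ratios scaling. The ratio of Apoe to its neighbour Apoc1 does not depend on the library scaling. It was 3.10, 2.92 and 2.27 at E16.5 and 5.32, 8.44 and 3.91 at E18.5, apart between the stages by 1.03 on the log2 scale (exact permutation p = 0.1, adjusted p = 0.15). Apoe is also made by macrophages. The summed level of 14 macrophage markers was 48.2 to 56.2 TPM at E16.5 and 79.9 to 131 TPM at E18.5. Of the 10 tested, 2 were called higher (Csf1r and Clec4f), against 26.0% of all genes tested, and Vsig4 was at 0 in E16.5 replicate C. The highest macrophage sum was in E18.5 replicate B. In that library Apoe had its lowest level of the stage, 1152 TPM, and its highest ratio to Apoc1, 8.44. The part of macrophages in the Apoe level was not tested.

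Apoa1 shares a cluster on chromosome 9 with Apoc3, Apoa4 and Apoa5, and these 3 neighbours were at a few TPM or less. Apoc3 encodes an inhibitor of triglyceride clearance and lies on the opposite strand, with 2466 bp between the genes (chr9:46232933-46235636). It was at 2.76, 1.39 and 2.60 TPM at E16.5 and 2.74, 1.54 and 5.34 TPM at E18.5, on 8 to 24 reads per library. Its log2 fold change was 0.30 (SE 0.39, adjusted p = 0.570) and turned to -0.02 under median-of-ratios scaling and to -0.099 under quantile normalization. In E18.5 replicate B the 95% exact Poisson interval of the level was 0.666 to 3.04 TPM.

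Apoa5, an activator of triglyceride hydrolysis (chr9:46268633-46271919, plus strand), was at 1.02, 0.254 and 0.497 TPM at E16.5 and 1.80, 1.32 and 2.64 TPM at E18.5. These values rest on 5 to 31 reads per library. The stages did not overlap, and the log2 fold change was 0.88 (SE 0.33, adjusted p = 0.0816). Apoa4, a protein of chylomicrons and high-density particles (chr9:46240696-46243459, plus strand), was at 1.86, 0.706 and 0 TPM at E16.5 and 0.0805, 1.40 and 0 TPM at E18.5. Its mean of 0.675 TPM kept it out of the test. Without the filter its log2 fold change was -0.30 (adjusted p = 0.716). A count of 3 reads, the limit that a count of 0 allows, corresponded to 0.193 to 0.407 TPM for Apoa4, and the value in E18.5 replicate A rests on 1 read. Such intervals and limits cover counting error only.

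**Figure D2:**
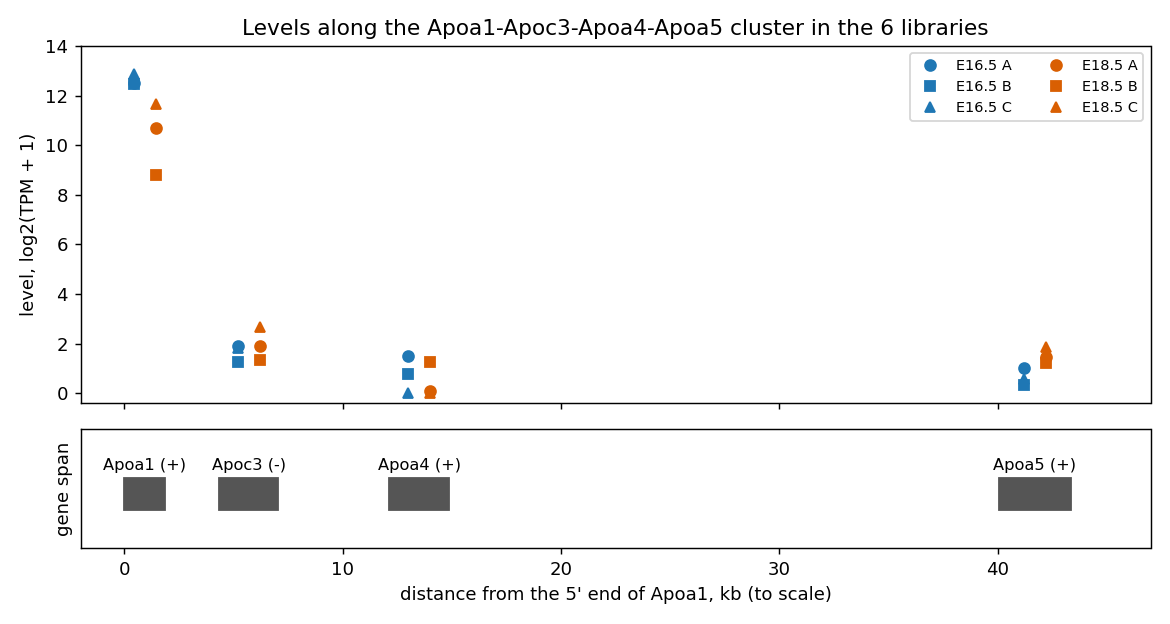
Levels as log2(TPM + 1) along the Apoa1 cluster, drawn to scale by distance in kb from the 5' end of Apoa1, with gene spans and strands below (blue, E16.5; orange, E18.5; circles, squares and triangles are replicates A, B and C). Apoa1 lies at 451 to 7563 TPM, whereas Apoc3, Apoa4 and Apoa5 stay below 6 TPM in every library.

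In each library Apoa1 was thus 292 to 4070 times Apoc3 at the level of TPM. On the log2 scale with a pseudocount of 1 this ratio was apart between the stages, lower by 2.53 at E18.5, as was that of Apoa1 to Apoa5, lower by 3.11 (exact permutation p = 0.1 each, adjusted p = 0.15). Annotation bears unevenly on the low genes. In GENCODE vM21, 69.8% of the exon length of Apoa4 is shared with Gm47528 and Gm10680 on the opposite strand, and 20.8% of that of Apoa5 with Gm47544. Of these, Gm47528 reached at most 0.479 TPM and the others were listed at 0. Apoc3 shares no exon with another gene in that annotation. Whether counting used strand is not given in the sources used here, so reads in shared exons may have been left out, and their part in the low values was not tested. Genes beside the cluster were lowly to moderately expressed and did not fall. Sik3 had a log2 fold change of 0.24 (adjusted p = 0.131), whereas Zpr1 was called higher by 0.60 (adjusted p = 0.0366), and not under median-of-ratios scaling (adjusted p = 0.351) or quantile normalization (adjusted p = 0.187).

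Within 50 kb of the 10 genes lay 30 other genes, of which 25 were tested. They had a median log2 fold change of 0.33, against 0.42 over all genes tested. Among them 4 were called lower and 6 higher, against 5.22% and 26.0% of all genes. The 4 were Apoc2 beside Apoc1, Prkca over Apoh, Fcer1g beside Apoa2 and Ly6g6f near Apom. Fcer1g and Ly6g6f are both known from platelets, though not from them alone. The 11 megakaryocyte markers summed to 3509 to 10109 TPM at E16.5 and 109 to 814 TPM at E18.5, all 11 called lower. The part of megakaryocytes in the levels of Fcer1g and Ly6g6f was not tested. The gene closest to Apom, D17H6S53E at 141 bp, had a log2 fold change of 0.83 (adjusted p = 0.0255), and 0.40 (adjusted p = 0.108) under median-of-ratios scaling. On chromosome 7 Tomm40 and Nectin2, the genes on the other side of Apoe, had log2 fold changes of 0.20 (adjusted p = 0.195) and 1.17 (adjusted p = 0.0182), the latter with an adjusted p of 0.0587 under median-of-ratios scaling.

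The bases before the gene starts are shown for members that fell (Apoa1, Apoa2 and Apob), for Apoe and for the low Apoa5. The sequences are from RefSeq on GRCm38.p6, which held 8 of the 10 members (not Apoc1 and Apoc3), and are cut at the first base that either RefSeq or GENCODE calls transcribed. Capitals mark matches to the motifs searched on both strands in the 250 bases before each RefSeq start, namely the TATA box TATAAA, the HNF4 motif TGNACTTTG, the HNF1 half-site GTTAAT, the FOXA motif TGTTTAC and the C/EBP motif TTGCNNAA.
Apoa1, chr9:46228380-46228579, plus strand: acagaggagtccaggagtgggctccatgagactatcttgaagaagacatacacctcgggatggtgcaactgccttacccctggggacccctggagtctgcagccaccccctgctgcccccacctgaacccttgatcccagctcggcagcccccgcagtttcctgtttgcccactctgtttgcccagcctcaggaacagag
Apoa2, chr1:171224804-171225053, plus strand: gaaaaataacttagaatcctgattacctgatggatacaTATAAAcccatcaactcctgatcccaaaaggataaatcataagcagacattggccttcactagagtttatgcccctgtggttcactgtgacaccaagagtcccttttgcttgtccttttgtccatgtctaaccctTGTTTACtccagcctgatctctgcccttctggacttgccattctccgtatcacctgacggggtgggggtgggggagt
Apob, chr12:7977427-7977647, plus strand: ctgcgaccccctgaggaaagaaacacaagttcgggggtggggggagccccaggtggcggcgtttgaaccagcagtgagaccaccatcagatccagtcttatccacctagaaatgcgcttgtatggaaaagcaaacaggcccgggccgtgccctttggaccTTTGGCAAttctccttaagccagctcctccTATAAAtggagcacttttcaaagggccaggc
Apoe, chr7:19699189-19699438, minus strand: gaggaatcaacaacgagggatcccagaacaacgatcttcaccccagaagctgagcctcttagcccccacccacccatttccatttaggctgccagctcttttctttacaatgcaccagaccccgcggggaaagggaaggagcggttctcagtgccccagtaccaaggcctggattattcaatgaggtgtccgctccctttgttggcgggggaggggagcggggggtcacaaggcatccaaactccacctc
Apoa5, chr9:46268383-46268632, plus strand: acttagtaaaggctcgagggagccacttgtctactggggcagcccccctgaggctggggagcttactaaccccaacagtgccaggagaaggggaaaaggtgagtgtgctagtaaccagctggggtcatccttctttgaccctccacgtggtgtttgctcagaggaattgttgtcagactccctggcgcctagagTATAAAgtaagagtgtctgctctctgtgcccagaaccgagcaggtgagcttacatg

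Apoa1 and Apoe held none of the 5 motifs in this window, and neither did Apom. Apoa2 held TATAAA at -212 and TGTTTAC at -77 from the RefSeq start, Apob held TATAAA at -60 and a C/EBP match on the minus strand at -90, and Apoa5 held TATAAA at -56. Apoh, which is not printed, held TGTTTAC at -71 from a RefSeq start that lies 51943 bp inside the GENCODE gene, and Apoa4 held an HNF4 match on the minus strand at -182. Of 32851 mouse promoters in the same table, 12.4% held TATAAA, 1.19% the HNF4 motif, 6.43% GTTAAT, 3.17% TGTTTAC and 9.56% the C/EBP motif. A match describes the letters and not a bound site. Only exact letters were searched, so a promoter without a match may hold sites with other letters. No motif of the 5 was held by all 3 printed genes that fell, and the part of these promoters in the changes was not tested.

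The level of each member was next set against hepatoblast markers of the same library. The mean log2(TPM + 1) of the 14 markers was 11.8 ± 0.138 (SD, n = 3) at E16.5 and 10.7 ± 0.668 (SD, n = 3) at E18.5, lower by 1.09 (exact permutation p = 0.1). The log2 fold changes of the single markers ranged from -2.90 (Afp) to -0.23 (Rbp4). Those of Apom, Apoa1, Apoa2, Apob, Apoc1 and Apoh lay within that range. Relative to the marker mean, the transcripts split. Apom was lower by 1.49, Apoa1 by 1.15, Apoa2 by 0.60 and Apob by 0.36, each apart between the stages. Without E18.5 replicate B the value of Apoa1 was -0.74. Of all genes tested, 0.820% were lower and apart on this measure and 79.3% higher and apart. Apoc1, Apoh and Apoe were higher by 0.34, 0.51 and 1.36, also apart, and so were Apoc3 and Apoa5 by 1.39 and 1.97. At a few TPM these last values hold the shift of the markers, 1.09, as well as the genes' own difference. Each of these 9 differences had an exact permutation p of 0.1, the smallest possible.

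**Figure D3:**
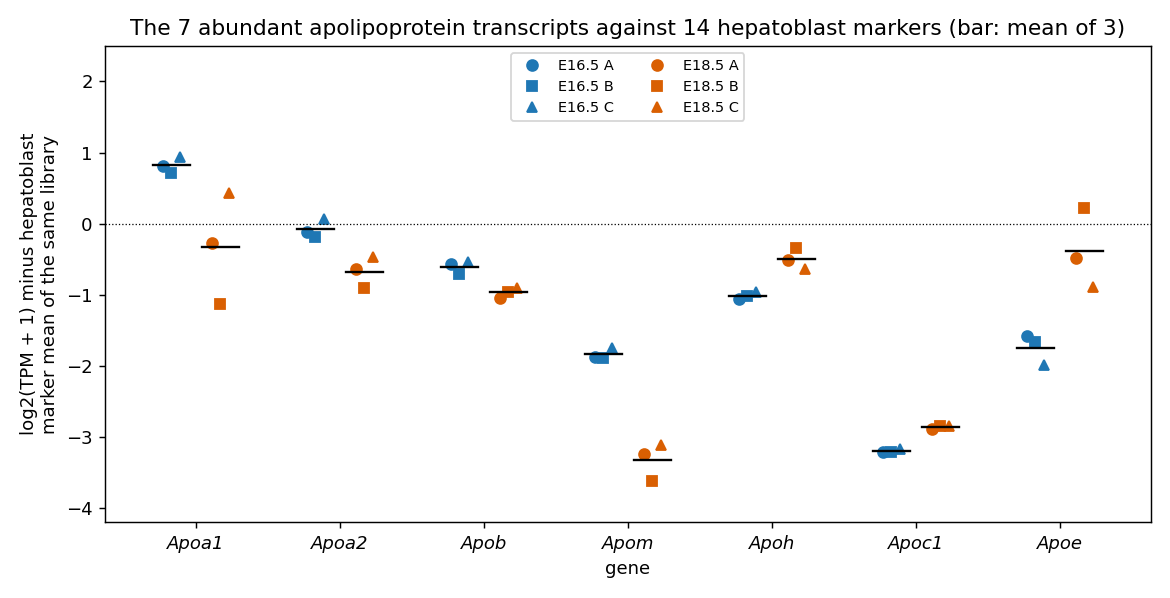
Level of the 7 abundant transcripts as log2(TPM + 1) minus the mean log2(TPM + 1) of 14 hepatoblast markers in the same library (blue, E16.5; orange, E18.5; bars are means of 3). Apoa1, Apoa2, Apob and Apom are lower at E18.5 on this scale, whereas Apoh, Apoc1 and Apoe are higher, and the 3 Apoc1 values of each stage lie within 0.1 of each other.

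The values by library show how tight the relation was. Apoc1 stood at -3.22, -3.21 and -3.17 relative to the markers at E16.5 and at -2.89, -2.85 and -2.85 at E18.5. Apob stood at -0.57, -0.71 and -0.54, then at -1.04, -0.95 and -0.90. Both genes therefore kept close to the markers in E18.5 replicate B, where the markers were lowest. Apoa1 did not, with 0.82, 0.71 and 0.94 at E16.5 and -0.28, -1.13 and 0.43 at E18.5, and Apoe stood at -1.59, -1.67 and -1.99, then at -0.48, 0.22 and -0.89. When the marker mean was set equal in a limma fit, Apom and Apoa1 were called lower (adjusted p = 0.00477 and 0.00641), whereas Apoa2 and Apob were not (adjusted p = 0.139 and 0.388). In the same fit Apoe, Apoa5 and Apoc3 were called higher (adjusted p = 0.00405, 0.0114 and 0.0436). That fit adds the shift of the markers, 1.09, to the difference of every gene. Relative to the markers, 79.3% of all genes tested were higher and apart and 0.820% lower and apart. How many genes the fit called in either direction is not given.

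A median pattern of the members was found as the median over the 10 genes of the log2 level centred within each gene. It was 0.45, 0.28 and 0.53 at E16.5 and -0.33, -1.01 and 0.11 at E18.5. Apoc1 was the member closest to it, at a root mean square distance of 0.121, then Apoh at 0.182, Apob at 0.326 and Apoa2 at 0.485. Apoc3 and Apoe were at 0.589 and 0.626. Apom was the farthest at 0.911, with Apoa4, Apoa5 and Apoa1 nearly as far at 0.897, 0.882 and 0.872. Among 11376 other protein-coding genes whose mean reached 5 TPM, the closest over the 6 libraries were Grhpr (0.0544), Agmat (0.0711), Acot4 (0.0836), Pygl (0.0859) and Gcdh (0.0910), followed by Gstm7, Cd302, Gpd1, Tnfaip2 and Shmt2. The last of them, Shmt2, was at 0.103. These genes were picked as the closest among 11376, so their distances cannot be set against those of the 10 members. Pygl is liver glycogen phosphorylase and Gcdh acts in lysine breakdown.

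Of 17 other apolipoprotein genes, 9 passed the filter and their median log2 fold change was -1.09. Saa4 and Saa3, of the serum amyloid A family, fell. Saa4 was at 80.4, 79.9 and 107 TPM at E16.5 and 12.4, 4.02 and 22.1 TPM at E18.5 (log2 fold change -2.94, adjusted p = 0.0123), and Saa3 was below 0.5 TPM in every E18.5 library. Apoc2, the activator of lipoprotein lipase, was at 5.74, 4.73 and 7.86 TPM and fell to 2.70, 1.20 and 3.33 TPM (log2 fold change -1.09, adjusted p = 0.0427), with 79.5% of its exon length shared with Gm44805 on the same strand. Clu, the gene of clusterin, rose. It was at 822, 937 and 453 TPM and then at 2796, 3104 and 2219 TPM (log2 fold change 1.93, SE 0.29, adjusted p = 0.0105). At E18.5 Clu was thus above Apoa1 in replicates A and B. Apof and Apoc4 had log2 fold changes of -0.56 and -1.26 that did not pass (adjusted p = 0.307 and 0.147).

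**Figure D4:**
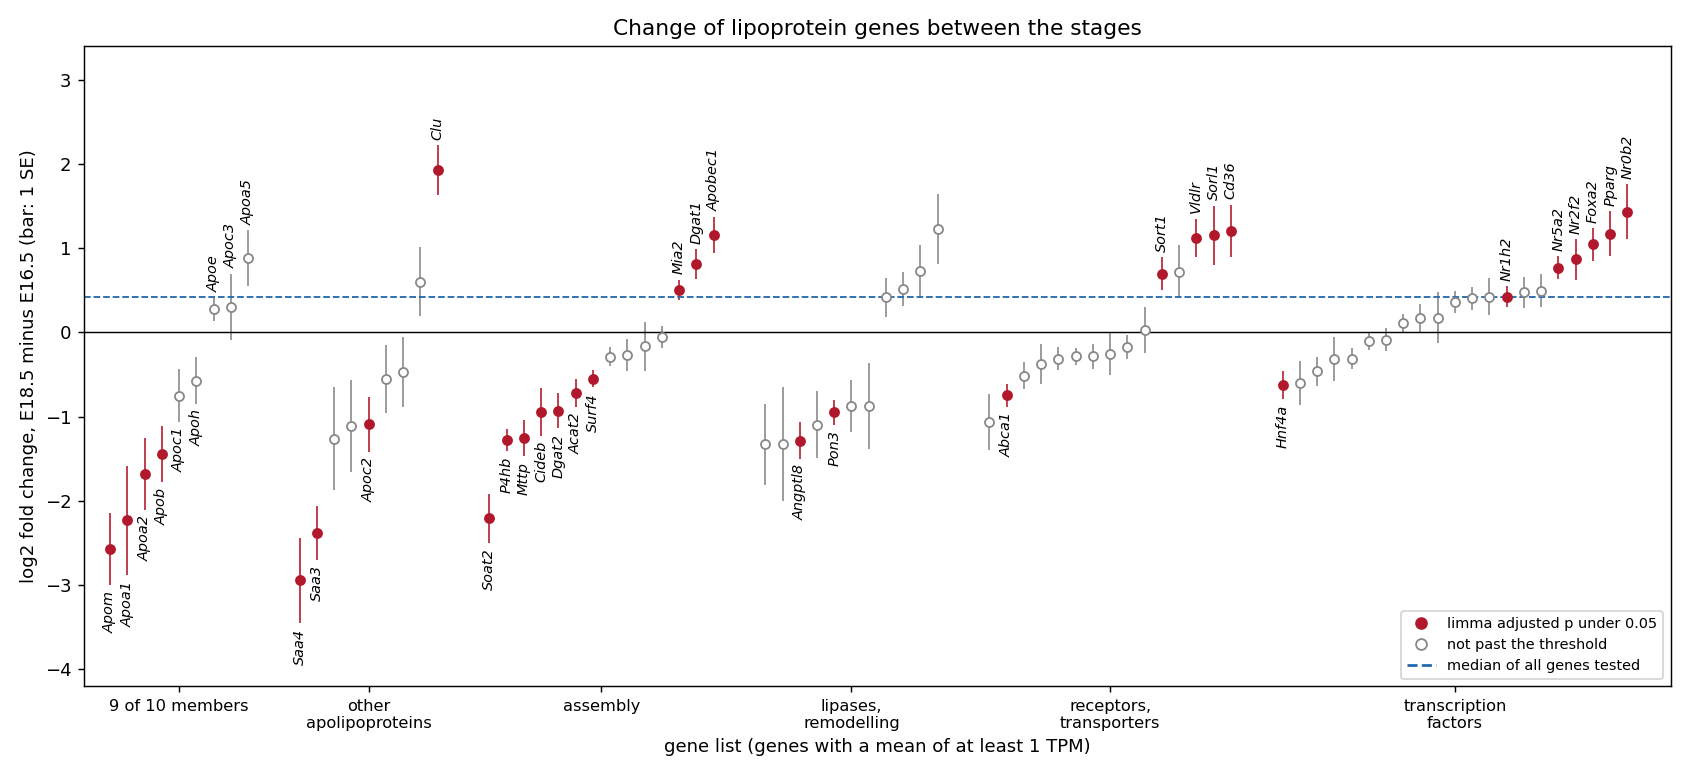
Log2 fold change (E18.5 minus E16.5, bars 1 SE, 3 libraries per stage) of the 9 tested members and of 5 lists of related genes, sorted within each list, with red points for limma adjusted p under 0.05 and the dashed line at the median of all genes, 0.42. All 4 called members lie below 0, whereas the points of the lists include 14 calls below and 14 above (3 called genes are not drawn), and of those above 10 lose the call under median-of-ratios scaling, where Nr1h2 turns to -0.03.

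Genes listed for lipoprotein assembly and its lipid supply moved in both directions. Of 14 genes, all tested, 7 were called lower and 3 higher, with a median of -0.42, against 5.22% and 26.0% of all genes and their median of 0.42. The subunits of the microsomal triglyceride transfer protein fell together. Mttp went from 92.8 to 99.7 TPM at E16.5 to 28.3 to 52.2 TPM at E18.5 (log2 fold change -1.26, adjusted p = 0.0121), and P4hb had a log2 fold change of -1.28 (adjusted p = 0.00735). Soat2, which esterifies cholesterol, fell by 2.21 (adjusted p = 0.00858). Dgat2, Cideb and Surf4, the last a receptor for secretory cargo in the endoplasmic reticulum, fell by 0.93, 0.94 and 0.55. Acat2, which fell by 0.72, encodes a cytosolic enzyme of cholesterol synthesis and loads no lipid onto APOB itself. All 7 of these calls held under median-of-ratios scaling and quantile normalization. Apobec1, the deaminase that edits Apob mRNA, rose by 1.16 (adjusted p = 0.0143), at 3.16 to 4.56 TPM at E16.5 and 8.11 to 11.7 TPM at E18.5, though under quantile normalization the adjusted p was 0.0534. Dgat1 and Mia2 were called higher on the TPM as deposited, but not under median-of-ratios scaling or quantile normalization.

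Among 12 genes of lipases and remodelling, 3 were called lower and 0 higher (median -0.91), against 5.22% and 26.0% of all genes. Angptl8, which takes part in the inhibition of lipoprotein lipase, had a log2 fold change of -1.29 (adjusted p = 0.0116), and Pon3, a paraoxonase of high-density particles, one of -0.95 (adjusted p = 0.0109). Lcat, which esterifies cholesterol on those particles, had a log2 fold change of -1.33 with an adjusted p of 0.0725. Among 16 receptors and transporters, 4 were called higher, a share near the 26.0% of all genes, and 2 lower (median -0.27). Abca1, which transfers cholesterol to APOA1, fell by 0.75 (adjusted p = 0.0139). Vldlr, a receptor that binds APOE, rose by 1.12 (adjusted p = 0.0162). It was at 30.2, 32.0 and 20.8 TPM, then at 66.2, 71.9 and 46.0 TPM. Cd36, Sorl1 and Sort1 were called higher on the deposited scale and lost the call under both other scalings.

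Of 23 transcription factors known to act on apolipoprotein genes, 22 were tested, with 7 called higher, 1 lower and a median of 0.38, near the 26.0% called higher and the median of 0.42 over all genes. Of the 7, Nr0b2, Nr1h2, Nr2f2, Nr5a2 and Pparg lost the call under median-of-ratios scaling. The gene that fell was Hnf4a, at 247 to 255 TPM at E16.5 and 126 to 197 TPM at E18.5 (log2 fold change -0.62, adjusted p = 0.0330), which is also 1 of the 14 hepatoblast markers. Foxa2, a forkhead factor of endodermal tissues, rose by 1.04 (adjusted p = 0.0139), and the call held under median-of-ratios scaling and quantile normalization. Cebpa, Ppara and Creb3l3 had log2 fold changes of 0.17, -0.60 and -0.31 that did not pass (adjusted p = 0.453, 0.115 and 0.372). Apoa1, Apoa4 and Apob are also transcripts of the intestine. Of 10 enterocyte markers 8 were tested, with Slc5a1 called higher and Fabp2 lower. Their summed level was 132 to 165 TPM at E16.5 and 102 to 162 TPM at E18.5, with Rbp2 the largest part in every library. Cdx1 was at 0 in 3 libraries. Fabp2, Vil1, Alpi, Lct, Cdx1, Cdx2 and Cdhr5 were highest in E16.5 replicate A, unlike Rbp2, Slc5a1 and Sis. Alpi was at 8.93, 1.76 and 0.268 TPM at E16.5 and 0, 5.27 and 0.527 TPM at E18.5. Within each stage Alpi and Apoa4 were both highest in the same library, E16.5 replicate A and E18.5 replicate B. The part of intestinal cells in the levels of Apoa1, Apoa4 and Apob was not tested.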

How the data were processed

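RNA of sorted Sox9-GFP cells was sequenced in 3 libraries per stage, grouped by their titles. The authors checked reads with FastQC 0.11.7, used Trimmomatic for trimming and HISAT2 2.1.0 for alignment to GRCm38, and turned HTSeq 0.5.4p3 counts on GENCODE vM15 into TPM, the unit of the deposited table, in which each library sums to 1000000. TPM divides by the library total, so a fall of abundant transcripts raises the values of others. Bowtie is also named in the submitters' processing notes, with no role.

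Read numbers follow from the TPM, the GENCODE vM21 exon length and the value of 1 read per library, and 100% of 180057 nonzero values of 49035 genes with the same identifier version were whole within 0.01. The recovered reads gave depth, intervals and the limit of 3 reads at 95% confidence. Stages were compared with limma 3.58.1 (R 4.3.3, eBayes with trend) on log2(TPM + 1), which understates changes of low genes, keeping genes whose mean was 1 TPM or more and calling an adjusted p under 0.05. Single values and ratios were compared by exact permutation tests (scipy 1.17.1). The steps were tested on simulated data with a dispersion of 0.03 and 200 changed genes. The fit recovered 95% of 4-fold and 50% of 2-fold changes, with 7 false calls (19164 genes tested). Shifts of whole cell types between libraries were not simulated. In the data 7000 genes were called, 83.3% of them higher, so these rates may not hold there. Libraries of 1 stage differed by more than sampling noise (chi-square per degree of freedom 15.1 or more), so none was a copy.

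The replicate letters were not taken as pairs. Named were all members, the called or best-known genes of the lists, genes within 50 kb, and the 10 genes of closest pattern. Members and lists were chosen with earlier results of these data known. Alternatives were other pseudocounts, filters, scalings and variance settings, voom, a replicate block, leaving out each library and other hepatoblast marker lists; the list without Afp was chosen after seeing the data. A few genes of the lists are counted but not reported by name.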

Additional observations from a re-analysis of the deposited data

How the results depend on the processing

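In 16 other fits, the call of Apom held in 16, of Apob in 13, of Apoa2 in 10 and of Apoa1 in 8, and these 4 genes kept their direction in all 16. In a further fit with the hepatoblast marker mean set equal, Apom and Apoa1 were called lower and Apoa2 (-0.60, adjusted p = 0.139) and Apob (-0.36, adjusted p = 0.388) were not. The number of members called was 2 with no filter on low values and 1 to 4 when 1 library was left out, with 1 left without E16.5 replicate A, E16.5 replicate C or E18.5 replicate A and 2 without E16.5 replicate B. Over all genes, calls numbered 3795 under median-of-ratios scaling, 3796 under quantile normalization, 4282 with no filter and 1148 (without E18.5 replicate A) to 5432 with 1 library left out, against 7000. In the 5 lists, calls in the lower direction numbered 27 under median-of-ratios scaling, 25 by voom and 7 to 23 with 1 library left out, against 16. Calls in the higher direction numbered 5 under median-of-ratios scaling, 5 under quantile normalization, 9 with no filter and 1 to 11 with 1 library left out, against 15. The cause of these moves was not tested, apart from the smaller number of libraries or the larger number of genes tested that those settings impose.

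Directions reversed for Apoe (-0.19) and Apoc3 (-0.0221) under median-of-ratios scaling, for Apoc3 under quantile normalization (-0.099) and without E18.5 replicate C (-0.047, in a range of -0.047 to 0.61 with 1 library left out), and for Apoc1 (0.34) and Apoh (0.51) when the hepatoblast marker mean was set equal. A block for the replicate letters called 7314 genes and 4 members. Same-lettered libraries deviated together with r = -0.04, 0.08 and 0.14 for A, B and C over 22452 genes. E16.5 replicates B and C correlated best with the E18.5 library of their own letter, whereas E16.5 replicate A correlated best with E18.5 replicate B. The letters were not taken as pairs, though these correlations cannot exclude pairing. Values relative to hepatoblast markers kept their direction without Alb and without Afp. Depth limits Apoc3, Apoa4 and Apoa5, at 31 reads or fewer per library.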
